A study of Mus musculus with 12 samples.

Results

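The Toll-like receptors measured here were Tlr1, Tlr2, Tlr3, Tlr4, Tlr5, Tlr6, Tlr7, Tlr8, Tlr9 and Tlr13, in mouse myeloid cells labelled wild-type or Ezh2-/-. A receptor was included where a transcript cluster, the array's unit for one gene locus, was annotated to its symbol alone. Each of the 10 had 1 such cluster, among 30142 genes named in this way and 65956 transcript clusters tested. Expression was read from 12 Affymetrix Mouse Transcriptome Array 1.0 arrays, in 6 groups of 2.

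All cells were HoxB8-ER cells on the C57BL/6 background: bone marrow cells that carry HOXB8 joined to the hormone-binding part of the estrogen receptor, and that stay immortal progenitors as long as estradiol (0.5 µM) is present. The groups were wild-type and Ezh2-/- undifferentiated cells in estradiol, and neutrophils made from each line by 6 days without it. The last pair of groups was wild-type neutrophils with vehicle or with GSK343, a compound that inhibits the EZH2 methyltransferase. The sample labels give 0.5 µM GSK343 for 9 days and the series text 1 µM, so the dose is not settled. The Ezh2-/- marrow and its control came from littermates. The number of lines per genotype is not given in the sources used here, nor is the origin of the replicates. Genotype and cell line therefore cannot be told apart. P-values rest on the spread between arrays of a group, and this spread may be technical only.

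Toll-like receptors are membrane proteins that bind conserved microbial molecules and start inflammatory signalling. TLR1, TLR2, TLR4, TLR5 and TLR6 act mainly at the cell surface: TLR2 pairs with TLR1 or TLR6 to bind lipopeptides, TLR4 binds lipopolysaccharide and TLR5 binds flagellin. TLR3, TLR7, TLR8, TLR9 and TLR13 sit in endosomes and bind nucleic acids. The endosomal receptors need the chaperone UNC93B1 to reach the endosome and proteases to be processed there, and nearly all receptors of the family signal through the adaptor MyD88. Neutrophils use them to sense bacteria and release cytokines.

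Of the 8 receptors with a start-site window in RefSeq (build GRCm38.p6), 4 had the core motif of PU.1, a myeloid transcription factor, within 250 bases upstream. The PU.1 motif was taken as GAGGAA on either strand (TTCCTC), which was found in 4 of the receptors' 10 windows and in 23.3% of all 32851 windows of that length. Tlr8, Tlr9 and Tlr13 had this motif and rose on wild-type differentiation, but Tlr2 and Tlr6 rose too and had no match to it. Whether the genotype responses of Tlr8, Tlr9 and Tlr13 differed from each other was not tested. The windows of Tlr8, Tlr9 and Tlr13 are shown. They are given 5′ to 3′ on the gene's strand, with the motif in capitals, and lie at chrX:167264330-167264579 (minus strand), chr9:106222348-106222597 (plus strand) and chrX:106143025-106143274 (plus strand).
Tlr8: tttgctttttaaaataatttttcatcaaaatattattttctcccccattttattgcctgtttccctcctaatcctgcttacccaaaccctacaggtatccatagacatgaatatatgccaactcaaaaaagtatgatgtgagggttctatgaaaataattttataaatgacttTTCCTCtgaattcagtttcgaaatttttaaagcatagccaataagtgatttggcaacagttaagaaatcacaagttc
Tlr9: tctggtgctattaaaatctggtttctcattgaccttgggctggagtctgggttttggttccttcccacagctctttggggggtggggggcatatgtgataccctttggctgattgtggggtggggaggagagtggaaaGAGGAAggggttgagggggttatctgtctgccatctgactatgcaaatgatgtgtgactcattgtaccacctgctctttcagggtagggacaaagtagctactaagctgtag
Tlr13: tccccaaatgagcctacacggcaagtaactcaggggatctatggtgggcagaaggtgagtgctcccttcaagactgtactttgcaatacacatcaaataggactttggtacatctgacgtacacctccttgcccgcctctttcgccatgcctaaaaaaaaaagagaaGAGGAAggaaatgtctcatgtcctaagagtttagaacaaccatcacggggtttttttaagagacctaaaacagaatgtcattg
Counted from the annotated start, the first base of the motif lay at -77 in Tlr8, -112 in Tlr9 and -83 in Tlr13. The fourth receptor with the motif was Tlr1, in 1 of its windows. The 3 windows shown held 1, 0 and 5 CpG dinucleotides in the order shown, against a median of 6 over all windows. Tlr4 and Tlr7 had no window in the table. Motifs of other transcription factors were searched as well. That of C/EBP matched in windows of Tlr3, Tlr6 and Tlr8 (9.56% of all windows). That of NF-kB matched in Tlr2, Tlr3 and Tlr5 (17.6%), and that of the IRF factors in Tlr6 (2.98%). A match describes the letters only, and no binding or chromatin was measured.

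Signals are log2 values as deposited. Background on each array was the 95th percentile of its 23 antigenomic probe sets, which ranged from 4.83 to 5.79. The 8 genotype arrays (medians 4.54 to 4.65) and the 4 drug arrays (medians 3.88 to 3.96) look separately normalized, so levels were compared only within each set. All 12 neutrophil markers lay above background on every neutrophil array. The Ezh2 transcript was lower in the undifferentiated null cells (9.10 and 9.44 against 11.57 and 11.65) but not in the null neutrophils (8.74 and 9.02 against 8.31 and 8.34). Whether its probes lie in the deleted part is not stated, so the latter are called neutrophils labelled Ezh2-null. Tlr7, Tlr8 and Tlr13 are X-linked, and on all 12 arrays Xist lay under background and the Y-linked Kdm5d, Eif2s3y and Uty above it.

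**Figure D1:**
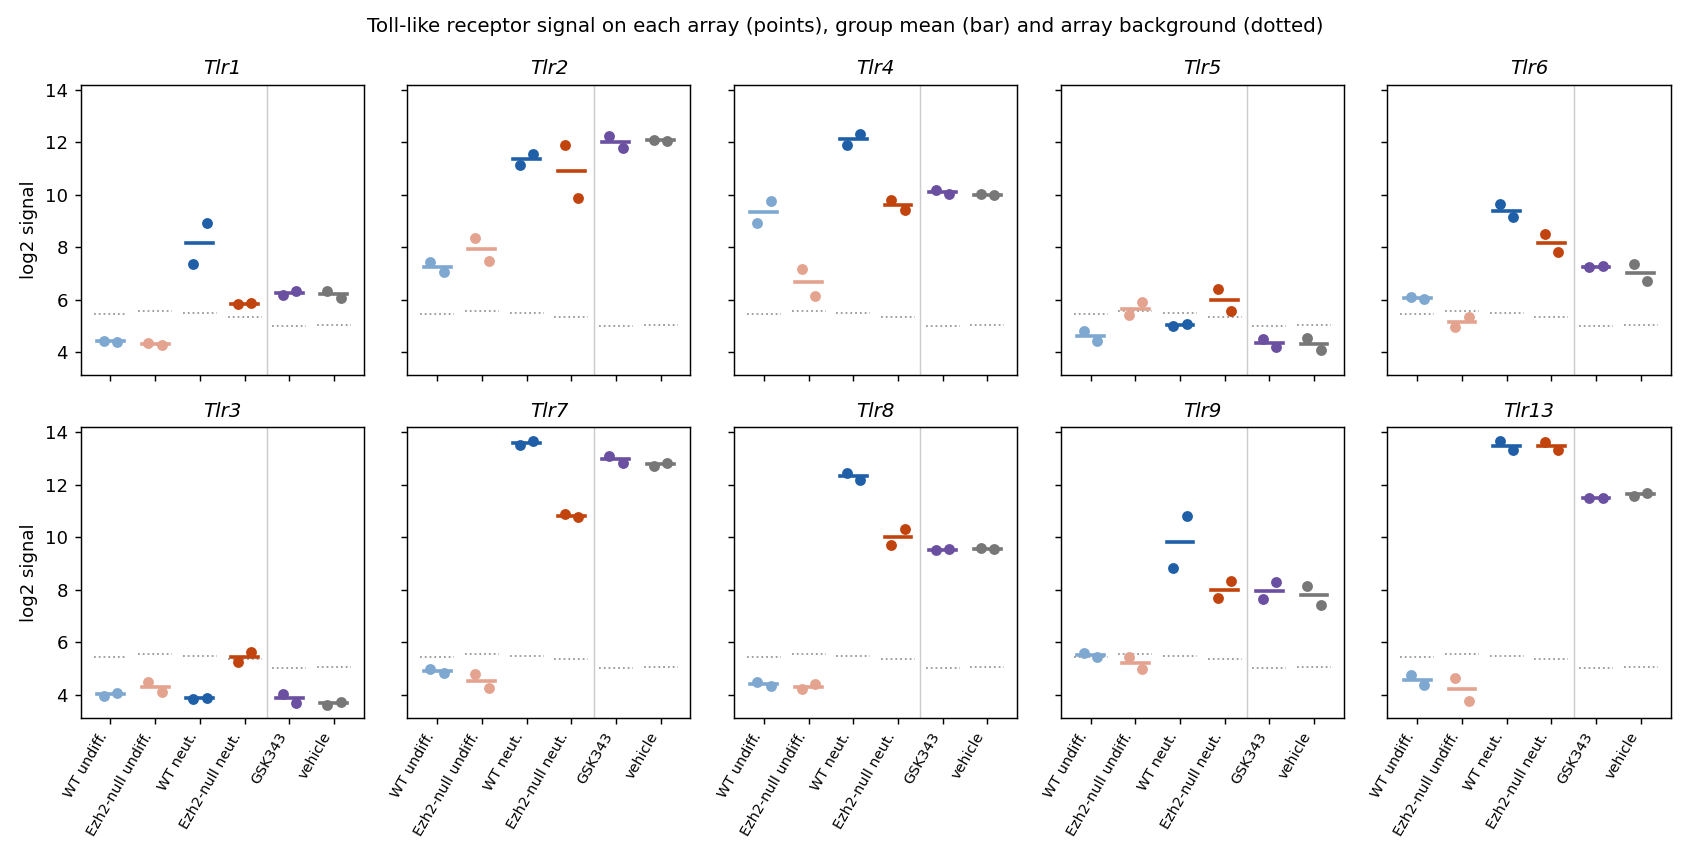
Log2 signal of each receptor (vertical axis) on the 2 arrays of each group (points) with the group mean (bar) and the mean array background (dotted), surface receptors above and endosomal receptors below. Tlr7 lay at 4.83 and 5.00 in wild-type undifferentiated cells and at 13.51 and 13.69 in wild-type neutrophils. The vertical line parts the separately normalized genotype and drug arrays.

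Differentiation of wild-type cells raised most of the receptors. By limma across all transcript clusters, 8 of the 10 receptors were higher in wild-type neutrophils than in wild-type undifferentiated cells at an adjusted p under 0.05, and 0 were lower. Over all clusters 25.3% were called either way and 13% were called higher. The median log2 difference was 3.92 over the receptors and 0.03 over all clusters.

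Among the surface receptors, Tlr4 went from 8.92 and 9.77 in wild-type undifferentiated cells to 11.90 and 12.32 in wild-type neutrophils, a 6.79-fold rise (log2 difference 2.76, SE 0.36, adjusted p = 0.00036). Tlr2, the shared partner in lipopeptide sensing, went from 7.46 and 7.04 to 11.13 and 11.57, 17.2-fold (4.10, SE 0.55, adjusted p = 0.00045). For both genes the arrays of the 2 stages were far apart and did not overlap.

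The partners of Tlr2 also rose. Tlr6 went from 6.11 and 6.05 to 9.64 and 9.15, 9.96-fold (3.32, SE 0.29, adjusted p = 3.0e-05). Tlr1 was under background on both wild-type undifferentiated arrays (4.43 and 4.41) and reached 7.37 and 8.94, at least 6.55-fold (3.73, SE 0.39, adjusted p = 9.2e-05). The wild-type neutrophil arrays thus lay far apart for Tlr1 and close together for Tlr6. Tlr5, the flagellin receptor, was under background on both arrays of both stages (4.82 and 4.45, then 4.98 and 5.06), with a log2 difference of 0.39 (SE 0.29, adjusted p = 0.43).

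The endosomal receptors for single-stranded RNA had the largest differences. Tlr7 went from 5.00 and 4.83 to 13.51 and 13.69, at least 285-fold (log2 difference 8.69, SE 0.19, adjusted p = 3.0e-08). Tlr8 went from 4.48 and 4.34 to 12.44 and 12.20, at least 118-fold (7.91, SE 0.19, adjusted p = 4.2e-08). Tlr13, which binds bacterial ribosomal RNA, went from 4.77 and 4.36 to 13.67 and 13.31, at least 266-fold (8.93, SE 0.27, adjusted p = 1.4e-07). All 3 lay under background on both undifferentiated arrays and above it on both neutrophil arrays. These bounds depend on the background limit: against the negative control median they were 189-fold for Tlr7, 77.9-fold for Tlr8, 176-fold for Tlr13 and 4.33-fold for Tlr1.

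Tlr9, the receptor for unmethylated CpG DNA, went from 5.61 and 5.44 to 8.84 and 10.83 (4.31, SE 0.56, adjusted p = 0.00036). As for Tlr1, wild-type neutrophil array 2 was the higher array. Without it the log2 difference was 3.32 for Tlr9 and 2.95 for Tlr1, and without array 1 it was 5.31 and 4.52, all called. Tlr3, the receptor for double-stranded RNA, stayed under background on both arrays of both stages (3.94 and 4.08, then 3.85 and 3.87), with a log2 difference of -0.16 (SE 0.18, adjusted p = 0.64).

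Markers of monocytes and macrophages, cells that also carry these receptors, moved with differentiation. The summed log2 signal of the 15 measured markers went from 12.86 to 13.29 in wild-type undifferentiated cells to 16.87 and 17.89 in wild-type neutrophils, and 10 of 15 rose. Of all clusters 13% were called higher in this comparison. Array 2 had the higher sum, as it had for the 10 dendritic cell markers (14.90 against 12.71). Their part in the receptor differences was not tested. In bulk RNA, more cells of a type and more RNA per cell cannot be told apart.

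Cells labelled Ezh2-null also gained receptor transcripts on differentiation. In the null line 9 of the 10 receptors were called higher and 0 lower, where 22.4% of all clusters were called and 11.7% called higher. The median log2 difference was 2.97, against 0.01 over all clusters. Tlr13 had the largest difference, from 4.64 and 3.77 to 13.62 and 13.33, at least 242-fold (9.27, SE 0.27, adjusted p = 1.1e-07). Tlr7 went from 4.79 and 4.25 to 10.87 and 10.79, at least 38.7-fold, and Tlr8 from 4.23 and 4.40 to 9.72 and 10.32, at least 22.1-fold.

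**Figure D2:**
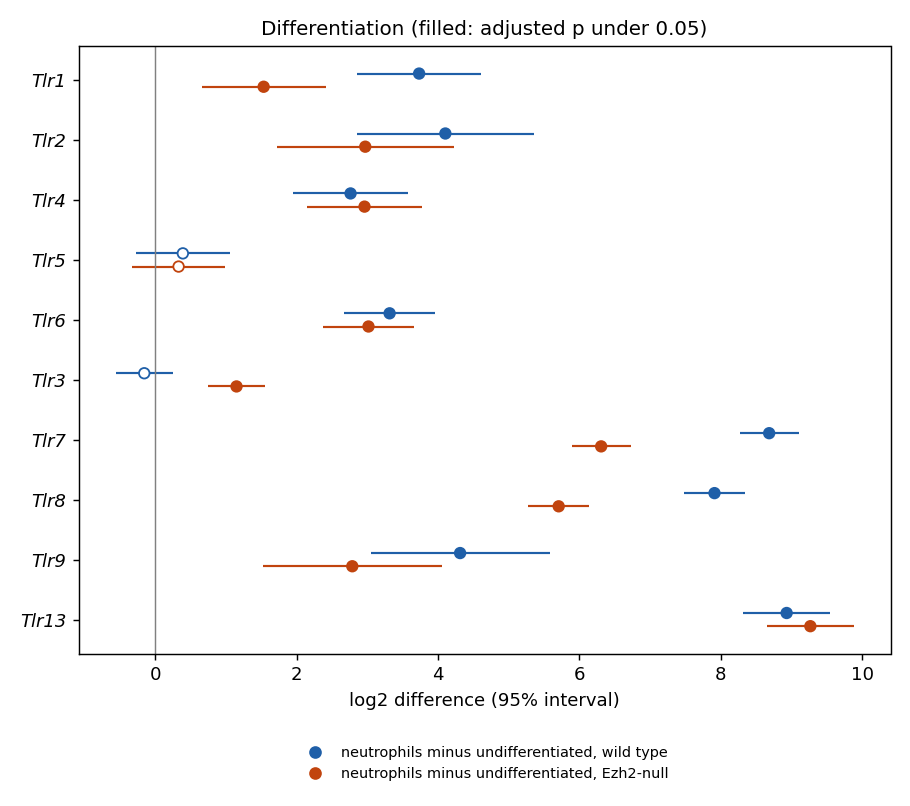
Log2 difference between neutrophils and undifferentiated cells (horizontal axis) for each receptor in wild-type and Ezh2-null cells, with 95% intervals from limma; filled points have an adjusted p under 0.05. Tlr7 stood at 8.69 in wild-type and 6.31 in null cells, and Tlr13 at 8.93 and 9.27.

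Surface receptors of the null line rose as well. Tlr4 went from 7.18 and 6.14 to 9.81 and 9.43 (2.96, SE 0.36, adjusted p = 0.00037). Tlr6 went from 4.95 and 5.36 to 8.52 and 7.82 (3.02, SE 0.29, adjusted p = 8.7e-05). Tlr2 went from 8.37 and 7.49 to 11.91 and 9.90, with the null neutrophil arrays far apart (2.97, SE 0.55, adjusted p = 0.0042).

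Calls for 3 receptors in the null line were less secure. Tlr9 went from 5.43 and 5.00 to 7.67 and 8.33, at least 5.42-fold (2.79, SE 0.56, adjusted p = 0.0063). Its adjusted p was 0.051 without null neutrophil array 2. Tlr1 went from 4.35 and 4.27 to 5.82 and 5.86, at least 1.22-fold (1.53, SE 0.39, adjusted p = 0.020), and missed the threshold without any 1 of the 4 null arrays (adjusted p 0.059 to 0.087) and with only the 8 genotype arrays fitted (0.056). With only the 4 null arrays fitted, Tlr2 missed it too (0.084). For Tlr1 no bound could be set against the highest antigenomic probe set or the negative control median. Tlr3 went from 4.47 and 4.11 to 5.27 and 5.61 (1.15, SE 0.18, adjusted p = 0.0016), values that straddle background, so no fold is given. Tlr5 had a log2 difference of 0.33 (SE 0.29, adjusted p = 0.53).

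Markers of other cells moved with differentiation of the null line. All 12 neutrophil markers were higher. So were 10 of 15 monocyte and macrophage markers (summed log2 signals from 9.76 and 9.90 to 16.39 and 16.59) and 8 of 10 erythroid and megakaryocyte markers, with 1 lower (10.58 and 11.93 to 15.35 and 15.65). Of 14 mast cell, basophil and eosinophil markers 9 were higher and 1 lower (18.01 and 18.33 to 19.39 and 19.42). The shares over all clusters were 11.7% higher and 10.7% lower. The part of these shifts in the receptor differences of the null line was not tested.

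Before differentiation, Tlr4 was the 1 receptor that differed by genotype. It was 7.18 and 6.14 in null cells against 8.92 and 9.77 in wild-type cells, 6.44-fold lower (log2 difference -2.69, SE 0.36, 95% interval -3.50 to -1.88, adjusted p = 0.0036). Of all clusters 2.99% were called, 1.34% lower. Every null array lay under both wild-type arrays. With only the 4 undifferentiated arrays fitted, the estimate kept its size but the adjusted p was 0.17.

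The other 9 receptors were not called in undifferentiated cells. Tlr5 was 5.41 and 5.93 in null against 4.82 and 4.45 in wild-type cells (1.04, SE 0.29, adjusted p = 0.13), with 1 null array above background. Tlr6 was 4.95 and 5.36 against 6.11 and 6.05 (-0.93, SE 0.29, adjusted p = 0.17). Both genes had arrays that did not overlap between genotypes, but so did Tlr1, Tlr2, Tlr3, Tlr7 and Tlr9. Of these, Tlr1, Tlr3 and Tlr7 lay under background on every undifferentiated array. The share of all clusters without overlap was not counted, so the lack of overlap is not read as a difference. The remaining 7 had log2 differences between -0.39 (Tlr7) and 0.68 (Tlr2). The summed signal of monocyte and macrophage markers was lower in null undifferentiated cells, as Tlr4 was (9.76 to 9.90 against 12.86 to 13.29). Such a sum is weighted to the brightest markers. The median log2 difference of the 15 markers was -0.01, against -0.01 over all clusters. Of the markers 2 were lower and 0 higher, where 1.34% of all clusters were lower and 1.65% higher. Their part in the Tlr4 difference was not tested.

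In neutrophils 6 of the 10 receptors differed by genotype. Tlr1, Tlr4, Tlr6, Tlr7 and Tlr8 were lower in the neutrophils labelled Ezh2-null and Tlr3 was higher, where 11.8% of all clusters were called, 5.06% lower and 6.75% higher. The median log2 difference was -1.53 over the receptors and -0.03 over all clusters. The receptors that were lower came from both compartments.

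Among the surface receptors, Tlr4 was 9.81 and 9.43 in null against 11.90 and 12.32 in wild-type neutrophils, 5.62-fold lower (-2.49, SE 0.36, 95% interval -3.30 to -1.68, adjusted p = 0.0020). Tlr1 was 5.82 and 5.86 against 7.37 and 8.94, 4.96-fold lower (-2.31, SE 0.39, adjusted p = 0.0046). Its null arrays lay just above background but under the negative control median, against which the fall was at least 4.02-fold. Tlr6 was 8.52 and 7.82 against 9.64 and 9.15, 2.34-fold lower (-1.23, SE 0.29, adjusted p = 0.022). No null array of these genes reached a wild-type array. Without wild-type array 1 the Tlr1 estimate was -3.09 and without array 2 it was -1.53, both called. Tlr6 missed the threshold without wild-type array 1 (-0.98, adjusted p = 0.15) or null array 2 (-0.88, adjusted p = 0.16). With only the 4 neutrophil arrays fitted, Tlr1 (adjusted p = 0.063) and Tlr6 (0.079) were not called.

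Tlr2 and Tlr5 were not called. Tlr2 was 11.91 and 9.90 in null against 11.13 and 11.57 in wild-type neutrophils, so the null arrays lay on either side of the wild-type ones (-0.45, SE 0.55, 95% interval -1.70 to 0.80, adjusted p = 0.75). Tlr5 was 6.41 and 5.58, above background on both null arrays, against 4.98 and 5.06, below it on both wild-type arrays. The difference was at least 1.42-fold (0.98, SE 0.29, adjusted p = 0.066), or 1.06-fold against the highest antigenomic probe set. Against the negative control median no bound could be set. Without null array 2 the log2 difference was 1.39. With dim clusters left out of the adjustment Tlr5 was called (adjusted p = 0.039).

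Of the endosomal receptors, Tlr7 and Tlr8 were the most clearly separated. Tlr7 was 10.87 and 10.79 in null against 13.51 and 13.69 in wild-type neutrophils, 6.80-fold lower (-2.77, SE 0.19, 95% interval -3.19 to -2.35, adjusted p = 3.0e-05). Tlr8 was 9.72 and 10.32 against 12.44 and 12.20, 4.92-fold lower (-2.30, SE 0.19, 95% interval -2.73 to -1.87, adjusted p = 9.6e-05). The arrays of each group lay much closer together than the groups did. Both genes were called under all 12 alternatives run for this comparison.

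Tlr13 did not follow them. It was 13.62 and 13.33 in null and 13.67 and 13.31 in wild-type neutrophils, a log2 difference of -0.02 (SE 0.27, 95% interval -0.63 to 0.60, adjusted p = 0.99). The arrays of the genotypes were interleaved, and the interval excludes a loss as large as that of Tlr7 or Tlr8. The difference between Tlr13 and the other receptors was not itself tested.

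Tlr9 was 7.67 and 8.33 in null against 8.84 and 10.83 in wild-type neutrophils, without overlap (-1.84, SE 0.56, adjusted p = 0.070). Without wild-type array 1, the lower of that group, it was called (-2.83, adjusted p = 0.0045), as it was with dim clusters left out (adjusted p = 0.035). Tlr3 was the 1 receptor that was higher, 5.27 and 5.61 in null against 3.85 and 3.87 in wild-type neutrophils (1.58, SE 0.18, adjusted p = 0.00056). Only 1 of the 2 null arrays lay above background, so no fold is given.

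**Figure D3:**
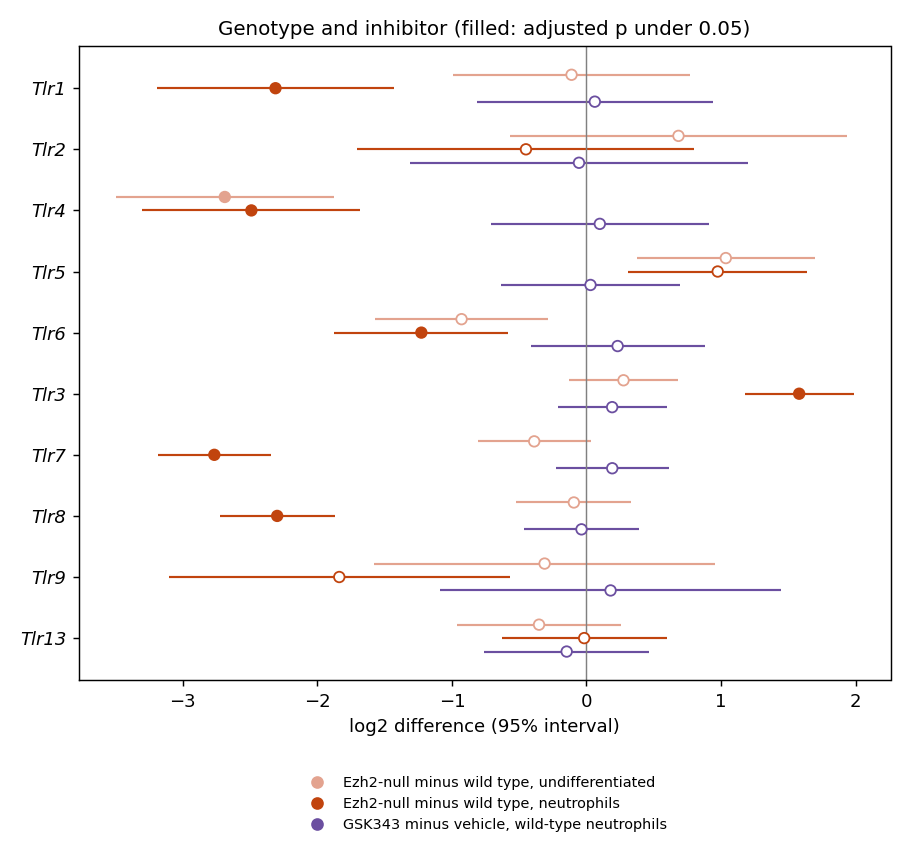
Log2 difference (horizontal axis) for each receptor between Ezh2-null and wild-type cells at each stage and between GSK343 and vehicle, with 95% intervals from limma; filled points have an adjusted p under 0.05. Tlr4 was lower in null cells at both stages (-2.69 and -2.49), Tlr7 and Tlr8 were lower in null neutrophils (-2.77 and -2.30), and no receptor was called with GSK343.

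Whether the effect of genotype differed between stages was tested by the interaction in the same limma fit. Tlr7 (-2.38, SE 0.26, adjusted p = 0.0014) and Tlr8 (-2.20, SE 0.27, adjusted p = 0.0023) had a more negative genotype difference in neutrophils than in undifferentiated cells. Since both lay under background before differentiation, a genotype difference at that stage may have gone unmeasured. Tlr3 had a more positive one (1.31, SE 0.25, adjusted p = 0.022), also from values near background. Of all clusters 4.41% were called in this test, 2.77% higher and 1.65% lower.

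Tlr4 had nearly the same genotype difference at the 2 stages, and its interaction was 0.20 (SE 0.51, 95% interval -0.95 to 1.34, adjusted p = 0.94). Tlr1 had an interaction of -2.20 (SE 0.55, adjusted p = 0.061). It was called without wild-type neutrophil array 1 (-2.98) or array 2 (-1.42, adjusted p = 0.0087). Tlr9 (-1.53, SE 0.79, adjusted p = 0.43) was called without wild-type neutrophil array 1 (-2.52, adjusted p = 0.043). The Tlr3 call was lost without null neutrophil array 2, wild-type neutrophil array 1 or either wild-type undifferentiated array, and with only the 8 genotype arrays fitted (adjusted p = 0.060).

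Marker lists of other cells differed between the neutrophil groups, where 6.75% of all clusters were called higher in null cells and 5.06% lower. Of 14 mast cell, basophil and eosinophil markers, 11 were higher in the neutrophils labelled Ezh2-null, with summed log2 signals of 19.39 and 19.42 against 12.46 and 13.77. All 10 erythroid and megakaryocyte markers were above background there and 2 in wild-type neutrophils, and 9 were higher (sums 15.35 and 15.65 against 9.56 and 12.10). Neutrophil markers were lower for 5 of 12 (20.06 and 20.47 against 20.69 and 21.26), and 5 of 10 progenitor markers were higher. Monocyte and macrophage markers were lower for 4 of 15 (16.39 and 16.59 against 16.87 and 17.89). Dendritic cell sums overlapped (14.80 to 16.63 against 12.71 to 14.90), at most 2 of 5 B cell markers were above background on any array, and at most 1 of 7 T and NK cell markers. The part of these shifts in the receptor differences was not tested.

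No receptor passed the test with GSK343. In wild-type neutrophils limma called 0 of the 10 receptors against vehicle, and 0 had an unadjusted p under 0.05. Over all clusters 1 was called (0.00152%), and 3963 had an unadjusted p under 0.05. The smallest unadjusted p among the receptors was 0.31 (Tlr3).

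Tlr7 was 13.11 and 12.84 with GSK343 and 12.71 and 12.85 with vehicle (0.19, 95% interval -0.23 to 0.61). Tlr8 was 9.51 and 9.57 against 9.60 and 9.54 (-0.04, 95% interval -0.46 to 0.39). Tlr13 was 11.49 and 11.50 against 11.58 and 11.69 (-0.15, 95% interval -0.76 to 0.46). The intervals of Tlr7 and Tlr8 exclude a fall of the size seen between genotypes.

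Values of the other receptors were likewise close, though not all intervals were narrow. Tlr4 was 10.19 and 10.03 with GSK343 against 10.02 and 10.003 (0.10, 95% interval -0.71 to 0.91). Tlr2 was 12.24 and 11.79 against 12.10 and 12.04 (-0.06, 95% interval -1.31 to 1.197). This interval leaves room for a change of more than 2-fold either way. Tlr6 had the largest difference of the 10, at 7.24 and 7.29 against 7.34 and 6.72 (0.23, 95% interval -0.41 to 0.88). For Tlr1 the values were 6.19 and 6.34 against 6.35 and 6.06 (0.06, 95% interval -0.82 to 0.94). Tlr9 gave 7.65 and 8.28 against 8.14 and 7.43 (0.18), with an interval of -1.09 to 1.45 that leaves room for a change of more than 2-fold either way. Tlr3 (4.05 and 3.69 against 3.63 and 3.72) and Tlr5 (4.49 and 4.18 against 4.53 and 4.08) were under background.

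The genotype and inhibitor differences in neutrophils were set against each other in 1 limma contrast, chosen after the data were seen and taken across the separately normalized arrays as a difference of differences. Tlr7 (-2.96, SE 0.26, adjusted p = 0.00049), Tlr8 (-2.26, SE 0.27, adjusted p = 0.0022) and Tlr4 (-2.59, SE 0.51, adjusted p = 0.027) were lower with genotype than with GSK343. Tlr3 was higher (1.39, SE 0.25, adjusted p = 0.020). Over all clusters 3.3% were called, 1.97% higher and 1.33% lower. Tlr7 and Tlr8 were called under all 15 alternatives run. The Tlr4 call was lost without wild-type neutrophil array 2, null neutrophil array 2 or any 1 of the 4 drug arrays (adjusted p 0.078 to 0.11), and with further quantile normalization (0.057). The Tlr3 call was lost without wild-type neutrophil array 1, null neutrophil array 2, GSK343 array 2 or either vehicle array (0.058 to 0.095). Tlr1 missed the threshold (-2.37, SE 0.55, adjusted p = 0.055) and passed it without wild-type neutrophil array 1 (-3.16) or array 2 (-1.59).

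From the highest group mean down, Tlr4, Tlr6 and Tlr9 stood in the order wild-type neutrophils, null neutrophils, wild-type undifferentiated and null undifferentiated cells. For Tlr6 and Tlr9 the undifferentiated groups lay near background and limma did not call them different (adjusted p 0.17 and 0.93). Tlr1, Tlr7, Tlr8 and Tlr13 were also highest in wild-type and then in null neutrophils, and lay under background in both undifferentiated groups, which therefore have no order. In Tlr13 the neutrophil groups overlapped. In Tlr4 the null neutrophils (9.81 and 9.43) overlapped wild-type undifferentiated cells (8.92 and 9.77). For Tlr2 the undifferentiated groups stood in the other order without overlap but were not called different, and the neutrophil groups overlapped. Tlr3 and Tlr5 were highest in null neutrophils, and for Tlr5 these overlapped null undifferentiated cells.

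Likeness between profiles was measured as the root mean square log2 difference over the 8 genotype arrays after each gene was centred, and is a description only. Among the receptors the closest pairs were Tlr7 with Tlr8 (0.48), neighbours on the X chromosome, Tlr3 with Tlr5 (0.52), both near background, and Tlr1 with Tlr9 (0.54), which share the high wild-type neutrophil array 2. Among all named genes, B430306N03Rik (0.42), Clec4a2 (0.49), Clec4a3 (0.49), Dpep2 (0.52) and Ly6g (0.53) were nearest to Tlr7. Nearest to Tlr4 were F13a1 (0.53), Clec12a (0.53), Gapt (0.53), Arid5b (0.57) and Pqlc3 (0.59). The mean profile of the 10 receptors was most like Aph1c (0.21), Rbm47 (0.22), Gm13768 (0.23), Cyth4 (0.23) and Npc1 (0.27).

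Of 15 accessory and trafficking genes, which carry and fold the receptors or present their ligands, 9 were higher and 3 lower in wild-type differentiation (median 1.17). Over all clusters 13% were higher and 12.2% lower in that comparison. Unc93b1, which escorts the endosomal receptors, went from 9.08 and 8.69 to 12.16 and 12.85 (3.62, adjusted p = 1.1e-05). The endosomal transporter Slc15a3 went from 5.46 and 5.30 to 9.46 and 10.47, at least 23.0-fold (4.59). Of 6 endosomal proteases 5 rose (median 4.68), among them Ctss (10.85) and Ctsb (5.41). Lgmn was under background before differentiation and rose at least 134-fold, or 88.3-fold against the negative control median.

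By genotype, 1 of the 15 accessory genes was higher and 0 lower in undifferentiated cells, and 0 were higher and 5 lower in null neutrophils (median -0.45). Over all clusters 1.65% were higher and 1.34% lower in undifferentiated cells, and 6.75% were higher and 5.06% lower in neutrophils. In undifferentiated cells Ly96 (MD-2, the co-receptor that binds lipopolysaccharide with TLR4) was higher in null cells, 13.85 and 14.07 against 11.45 and 11.78 (2.35, SE 0.20, adjusted p = 0.00023), the opposite direction to Tlr4. In neutrophils Ly96 was 15.95 and 15.93 against 16.02 and 15.97 (-0.06, adjusted p = 0.93), and the interaction was -2.41 (adjusted p = 0.0018).

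The 5 that were lower in null neutrophils were Lbp, Cd14, Cnpy3, Slc15a4 and Ly86. Lbp, which hands lipopolysaccharide to CD14, was 7.99 and 7.69 in null against 11.48 and 10.53 in wild-type neutrophils (-3.17, SE 0.27, adjusted p = 0.00013). Cd14, the co-receptor that passes it on, was 9.41 and 8.45 against 10.31 and 10.80 (-1.63, SE 0.29, adjusted p = 0.0057). Cnpy3, a chaperone for several receptors of the family, was 9.84 and 9.77 against 11.30 and 11.82 (-1.76, SE 0.31, adjusted p = 0.0055). Null arrays were below wild-type arrays for all 3. Ly86, the partner of the receptor-like protein CD180, was lower (-0.80, adjusted p = 0.013), but not without null array 1 or either wild-type array (0.060 to 0.065). With only the 4 neutrophil arrays fitted, Cd14 (adjusted p = 0.063) and Ly86 (0.091) were not called.

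Unc93b1 was 11.81 and 12.02 in null against 12.16 and 12.85 in wild-type neutrophils (-0.59, SE 0.26, adjusted p = 0.22). Slc15a4, a transporter needed for signalling from endosomal receptors, was lower (-1.44, adjusted p = 0.0081), but not without null array 2 (-1.15, adjusted p = 0.071). Among the 6 proteases, Ctsl was higher in null neutrophils (13.73 and 13.93 against 11.90 and 12.01, a difference of 1.87, adjusted p = 0.00011) and the other 5 were not called.

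Adaptors join receptors to kinases, and 3 of 6 were lower in null neutrophils (median -0.95), where 5.06% of all clusters were lower. Ticam2 (TRAM), which links TLR4 to the TRIF pathway, was 6.81 and 6.67 against 8.65 and 8.98 (-2.08, SE 0.25, adjusted p = 0.00073). Tirap, the bridge from TLR2 and TLR4 to MyD88, was lower (-1.65, adjusted p = 0.025), though not without wild-type array 1 or null array 2. Ticam1 (TRIF), the adaptor of TLR3, was lower (-1.07, adjusted p = 0.040) but lost the call without any 1 of the 4 neutrophil arrays, and with quantile normalization or median centring. Myd88 itself rose in wild-type differentiation (8.82 and 8.75 to 11.18 and 10.61, a difference of 2.10, adjusted p = 0.00072). By genotype in neutrophils it was 10.51 and 9.61 against 11.18 and 10.61, with array 1 of the null reaching close to the wild type (-0.83, adjusted p = 0.13).

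**Figure D4:**
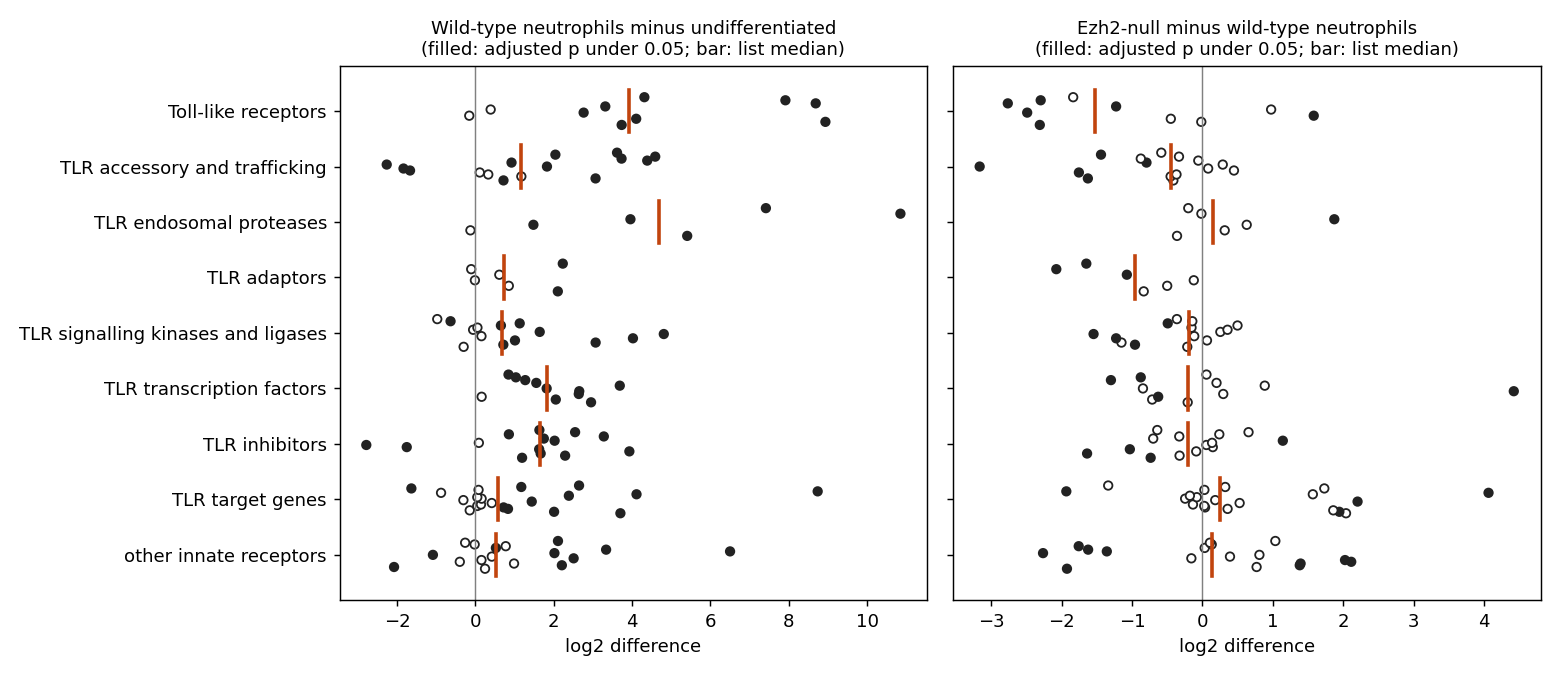
Log2 difference (horizontal axis) of each measured gene in the receptor family and in 8 lists of its pathway, for wild-type differentiation (left) and for genotype in neutrophils (right); filled points have an adjusted p under 0.05 and bars are list medians. The receptors' medians were 3.92 and -1.53, and those of the adaptors 0.73 and -0.95.

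Kinases, transcription factors and inhibitors act downstream of the adaptors. In wild-type differentiation 8 of 14 measured kinases and ligases were higher and 1 lower (median 0.68), 10 of 11 transcription factors were higher and 0 lower (1.82), and 11 of 14 inhibitors were higher and 2 lower (1.65). Over all clusters 13% were higher and 12.2% lower in that comparison. Among the kinases that rose were Map3k8 (4.81) and Irak2 (4.02). The 1 kinase or ligase that was lower, Traf6, was not called without wild-type neutrophil array 2 or either wild-type undifferentiated array.

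In null neutrophils 4 of 14 kinases were lower and 0 higher, where 5.06% of all clusters were lower and 6.75% higher. Among the 4 was Irak2 (8.06 and 8.14 against 9.44 and 9.21, a difference of -1.23, adjusted p = 0.0023). Irak2 was called without each array in turn. Tbk1 and Map3k8 were not called without null array 2 or either wild-type array, and Ikbkb was not called without any 1 of the 4. With only the 4 neutrophil arrays fitted, Tbk1 and Map3k8 were not called. Of 14 inhibitors 3 were lower and 1 higher, and Irak3, which blocks signalling below MyD88, was lower (11.62 and 11.11 against 13.11 and 12.90, a difference of -1.64, adjusted p = 0.0017). Irak3 was called without each array in turn. Without wild-type array 1, or with only the 4 neutrophil arrays fitted, the other 3 (Cyld and Nfkbie, lower, and Tnfaip3, higher) were not called. Cyld and Nfkbie were also lost without null array 2, Nfkbie without wild-type array 2 and Tnfaip3 without null array 1.

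Among the 11 transcription factors 3 were lower and 1 higher in null neutrophils, where 5.06% of all clusters were lower and 6.75% higher. Rel, an NF-kB subunit, was 13.08 and 12.50 against 14.10 and 14.08 (-1.30, adjusted p = 0.0016). Irf7, the interferon regulatory factor that acts below TLR7 and TLR9 and is itself induced by interferon, was 12.11 and 12.97 against 7.32 and 8.91 (4.42, SE 0.46, adjusted p = 0.00033). It thus went the opposite way to Tlr7 itself. Rel and Irf7 were called without each array in turn. The other 2, Rela (-0.88) and Irf3 (-0.63), were lower but were not called without any 1 of the 4 neutrophil arrays (adjusted p 0.065 to 0.14 for Rela and 0.057 to 0.15 for Irf3).

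Of 20 target genes, 3 were higher and 1 lower in null neutrophils (median 0.25), and 10 were higher and 1 lower in wild-type differentiation (median 0.57). Over all clusters 6.75% were higher and 5.06% lower by genotype in neutrophils. The shares in wild-type differentiation were 13% higher and 12.2% lower. In differentiation the count of higher genes fell without each of the wild-type arrays in turn, and Il1b and Ccl5 were lost each time. So was Ptgs2, the 1 gene called lower (-1.63). By genotype in neutrophils 0 of the 20 were called without wild-type array 1, and all 4 calls were also lost with only the 4 neutrophil arrays fitted. Cxcl2, which was higher, was also lost without null array 1, and Ccl2 (higher) and Lcn2 (lower) without null array 2. Il6 was 6.56 and 9.47 in null neutrophils and under background in the wild type (3.96 and 3.94), at least 5.75-fold (4.06, adjusted p = 0.0092). Without wild-type array 1 its adjusted p was 0.051, and with only the 4 neutrophil arrays fitted it was 0.068.

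Of 17 other innate receptors 4 were higher and 5 lower in null neutrophils, where 6.75% of all clusters were higher and 5.06% lower. Without wild-type array 1 or null array 2 the counts were 2 and 3, Ddx58 and Dhx58 (higher) and Nlrp3 and Sting1 (lower) being lost. The latter pair was also lost without wild-type array 2. Aim2, a cytosolic DNA sensor, was lower (9.42 and 9.28 against 11.27 and 11.28, a difference of -1.92, adjusted p = 1.7e-05). Nlrc4, an inflammasome protein that responds to flagellin, was lower as well (-2.26, adjusted p = 0.00083). With GSK343 none of the 8 lists had a called gene.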

How the data were processed

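RNA (250 ng per sample) was hybridised to 12 arrays, per the labels' protocols. The authors deposited log2 signals for 72688 entries; the submitters' processing notes name Affymetrix Expression Console and Transcriptome Analysis Console. What summarisation, background correction and genome build were used is not given in the sources used here. How far a cluster's probes distinguish related receptors is not known. The 6732 control probe sets were left out. Of 65956 clusters, 30604 carried 1 symbol, 2146 several and 33206 none; 22818 of the 1-symbol clusters matched RefSeq. The brightest cluster stood for a gene.

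The 12 arrays were fitted as 6 group means with lmFit and eBayes (limma 3.58.1, R 4.3.3). P-values were adjusted by Benjamini-Hochberg over all clusters, with a threshold of 0.05. Intervals are 95% limits from this fit (6 residual and 3.056 prior degrees of freedom). The fit was tested on simulated data. No set was tested; lists are given as counts and medians.

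A fold is written "at least" where no array of the dimmer group exceeded background; each of its arrays then counted at background or at the gene's signal, whichever was higher. Named pathway genes were at most 4 called genes per list and comparison, by size, plus Cd14, Ly96, Unc93b1, Myd88 and Ticam1. Likeness used the smallest root mean square difference. Irak1, Irak4, Traf3, Chuk, Ripk1, Nfkb1 and other list genes without a 1-symbol cluster were not analysed here. Members and lists were chosen with earlier results of these data known. Arrays were not paired by replicate number, since replicate deviations correlated only weakly between the groups compared (-0.19 to 0.19). With 2 arrays per group this cannot show whether replicates were processed in pairs. Arrays of 1 group correlated at 0.984 to 0.995, and each array's highest correlation with another group was 0.967 to 0.995. GSK343 array 2 correlated more with another group (0.9947) than with its own replicate (0.9935). Per array, 28.8% to 43.4% of clusters lay above background. The number of arrays limits the precision.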

Additional observations from a re-analysis of the deposited data

Results flagged for a closer look

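For 3 receptors the effect of genotype differed between undifferentiated cells and neutrophils by limma's interaction term over 2 arrays per group: Tlr7 (-2.38, adjusted p = 0.0014), Tlr8 (-2.20, adjusted p = 0.0023) and Tlr3 (1.31, adjusted p = 0.022). Across the alternatives run, Tlr7 and Tlr8 kept their calls in 16 of 16, and without each array in turn the Tlr7 difference ranged from -2.65 to -2.11 and that of Tlr8 from -2.50 to -1.90. Tlr3 ranged from 1.13 to 1.49, with adjusted p from 0.013 to 0.089. The 3 genes lay under background in undifferentiated cells of both genotypes.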

How the results depend on the processing

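The alternatives were further quantile normalization, median centring, leaving out dim clusters, testing 1-symbol clusters only, fitting only the arrays compared or only their range, an intensity trend, the replicate number as a block and leaving out each array in turn. Averaging over clusters of a symbol could not differ, since each receptor has 1. A crossed replicate block and the counts per pathway list under these alternatives were chosen after seeing the data. In wild-type differentiation all 8 calls held in 13 of 13 alternatives. With only the arrays compared, the count of called receptors by genotype in undifferentiated cells was 0. With a replicate block, 2 receptors were called for genotype minus GSK343, Tlr4 (adjusted p = 0.073) and Tlr3 (0.054) being lost, and the left-out arrays gave 2 to 5, with 2 without null neutrophil array 2, GSK343 array 2 or either vehicle array. The block also lost Tlr3 in the interaction (0.055) and kept the other counts within 1.5 times of those reported; over all clusters it called 8156 higher and 7670 lower in wild-type differentiation, against 7664 and 7559 with crossed numbers, and 1 higher and 1 lower with GSK343 either way.

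Leaving out 1 array turned the sign of 15 differences, none of them called. Their ranges were as follows: in null differentiation Tlr5 -0.082 to 0.74. By genotype Tlr13 went from -0.79 to 0.084 in undifferentiated cells and from -0.20 to 0.16 in neutrophils, where Tlr2 went from -1.45 to 0.56. The interaction ranged from -0.32 to 0.72 for Tlr4, -0.47 to 0.35 for Tlr5, -0.65 to 0.052 for Tlr6 and -0.10 to 0.77 for Tlr13. With GSK343 the ranges were -0.083 to 0.21 for Tlr1, -0.28 to 0.17 for Tlr2, -0.19 to 0.25 for Tlr5, -0.082 to 0.54 for Tlr6 and -0.17 to 0.53 for Tlr9. For genotype minus GSK343 they were -1.40 to 0.61 for Tlr2 and -0.049 to 0.31 for Tlr13. The cause was not tested. Receptors near background (Tlr3, Tlr5) are limited by signal, and 2 arrays per group limit all intervals.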
